A study of Mus musculus with 56 samples.

Results

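The livers of 3 uninjected miR-122 floxed mice were compared with those of 2 mice at postnatal day 270 (P270), all by small RNA-seq. These 5 libraries are among 42 small RNA libraries in a series of 56 samples, and they were taken by their labels, which give the genotype and day or the age. The floxed mice carried LoxP sites around the miR-122 precursor and had received no Cre vector, so miR-122 should be intact in every hepatocyte. The P270 mice are from the stages of normal liver development and their labels name no genetic change, so they stand as the wild type. Both groups have the 129Sv/J strain background, and each library is from 1 animal (floxed A, B and C, and P270 A and B). The comparison addresses whether the floxed allele, before any Cre is given, already changes the microRNAs of the liver. The floxed mice are described as adult, and their labels give neither age nor sex. A column heading in the study's supplementary data may mean that they were younger than the P270 mice, which was not settled here. Genotype, age and the handling of the libraries cannot be told apart here.

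MicroRNAs are RNAs of about the length of the sequences printed here, cut from a hairpin precursor, which guide Argonaute proteins to messenger RNAs by pairing through their seed, the bases 2 to 8 at the 5′ end. The messages they pair with are repressed, and microRNAs with the same seed share most of their targets. In the adult liver miR-122 is by far the most abundant microRNA, and it is made by hepatocytes. The let-7 family is abundant in most mature tissues and rises as they differentiate, miR-21 and miR-192 are also abundant in hepatocytes, and miR-126 is a microRNA of endothelial cells, made from within the gene Egfl7. The imprinted clusters at Dlk1-Dio3 on chromosome 12 and at Igf2 and H19 on chromosome 7 are active in the fetal liver and largely silent in the adult.

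The mature sequences below belong to abundant microRNAs of these livers other than miR-122 and to 4 that stood out in P270 A, as given by RefSeq for GRCm38.p6, with the seed in capitals. The measured values are per hairpin and do not tell the 5p from the 3p arm, and the arm shown is the one usually more abundant.

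The first set is of microRNAs abundant in these livers, and its let-7 members have one seed:
let-7a-5p: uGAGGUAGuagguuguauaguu
let-7f-5p: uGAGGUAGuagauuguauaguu
let-7c-5p: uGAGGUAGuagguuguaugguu
let-7g-5p: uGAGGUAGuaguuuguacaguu
miR-26b-5p: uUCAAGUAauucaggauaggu
miR-21a-5p: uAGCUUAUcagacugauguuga
miR-192-5p: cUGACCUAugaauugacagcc
miR-126a-3p: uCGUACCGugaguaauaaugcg

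The second set was far higher in P270 A than in the other 4 livers:
miR-706: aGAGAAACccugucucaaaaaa
miR-1198-5p: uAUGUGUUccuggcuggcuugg
miR-193a-3p: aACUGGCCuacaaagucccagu
miR-148a-3p: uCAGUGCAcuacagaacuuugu

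In the NCBIM37 build, the miR-21 hairpin lies at chr11:86397569-86397660 on the minus strand, in an exon of a transcript of Vmp1, and the miR-192 hairpin at chr19:6264844-6264932 on the plus strand. The miR-26b hairpin lies at chr1:74440884-74440968 in an intron of Ctdsp1, and the let-7g hairpin at chr9:106081171-106081258 in an intron of Wdr82, both on the plus strand. The miR-706 hairpin lies at chr6:119984246-119984329 on the minus strand, in an intron of Wnk1, and the miR-1198 hairpin at chrX:7384227-7384347 on the plus strand, in an intron of Gripap1. The miR-193 hairpin at chr11:79525471-79525536 and the miR-148a hairpin at chr6:51219811-51219909 lie in no annotated host gene. The 22 bases of miR-706 occur 21403 times in the NCBIM37 genome, counting exact matches on both strands. The other 18 mature sequences that were searched, which include the rest of those printed here, occur 1 or 2 times each.

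The libraries did not have equal depth. Floxed A, B and C hold 808304, 618499 and 743262 listed microRNA reads, and P270 B holds 811147. P270 A holds 100879, of which 21824 are of microRNAs other than miR-122. One read of another microRNA is worth 45.8 RPM there (RPM, reads scaled to a library total of 1000000), against 3.90 to 4.63 RPM in the other 4 livers. In P270 A, 48.3% of the total to which the deposited RPM were scaled is not in the list of 479 microRNAs, while in the other 4 livers the list adds up to the whole. The P28 liver, a single mouse at postnatal day 28, has the same property, with 33.9% not listed. P270 A is kept in each comparison here, with the value without it where that matters.

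miR-122, the microRNA that the floxed allele surrounds, was the most abundant microRNA in all 5 livers. It took 73.3% of the listed microRNA reads in floxed A, 59.2% in floxed B and 66.7% in floxed C. It took 78.4% in P270 A and 68.4% in P270 B. P270 B thus lies within the range of the floxed livers, and P270 A lies above it. The means were 66.4% ± 7.06 (SD, n = 3) and 73.4% ± 7.07 (SD, n = 2). Counting error is small beside this, since the 95% Wilson interval of the shallowest library, P270 A, is 78.1 to 78.6%, and such intervals cover counting error only. The log2 ratio of floxed to P270 was -0.15, with p = 0.4 by exact permutation (two-sided), a design of 3 against 2 mice in which no p can be below 0.1. Without P270 A it was -0.048.

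Counted as reads of miR-122 for each read of any other microRNA, the floxed livers had 2.74, 1.45 and 2.00, and the P270 livers 3.62 and 2.16. On this scale too the floxed livers A and C lie on either side of P270 B, and floxed B is the lowest. Against the full total behind the deposited values, with its unlisted part, the share of P270 A is 40.5% in place of 78.4%. The direction between the groups then turns, with a log2 ratio of 0.33 (p = 0.5, exact permutation test). On each of these scales the groups overlapped for miR-122, and a difference smaller than the spread between mice was not detectable.

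**Figure D1:**
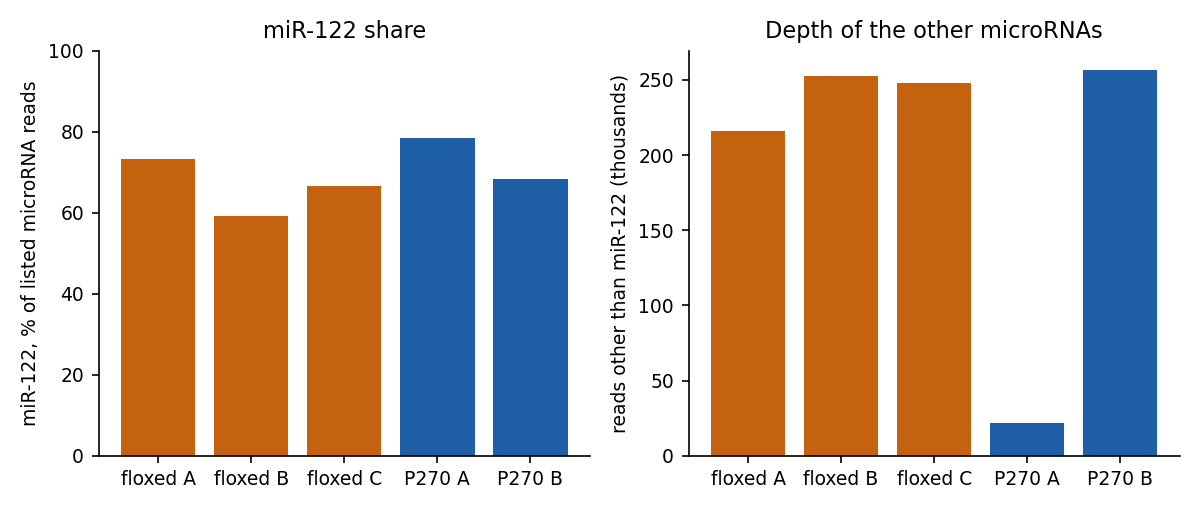
miR-122 as a percentage of the listed microRNA reads (left) and the number of reads of all other microRNAs, in units of 1000 (right) in each of the 3 floxed (orange) and 2 P270 (blue) libraries. The share runs from 59.2% to 78.4% with the groups overlapping, and P270 A has 21824 other reads against 215898 to 256603 in the other 4 libraries.

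For all other microRNAs, RPM were taken over the reads that are not miR-122, so that the share of miR-122 does not move them. A microRNA was tested if its mean over the 5 livers was at least 100 RPM, which 145 of 479 passed. No microRNA differed between floxed and P270 livers at an adjusted p of 0.05 (limma on log2(RPM + 1), Benjamini-Hochberg, 0 of 145, 0%). None had an unadjusted p under 0.05 either, the lowest being 0.067 and the lowest adjusted p 0.98. limma's voom on the recovered reads also called 0, with 2 at an unadjusted p under 0.05.

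This count does not show that the livers were alike, since changes of several-fold lay within the intervals. The 95% interval of a microRNA's log2 ratio had a median half-width of 2.30, and no interval lay wholly between -1 and 1. With miR-122 left out of the total and all livers in the fit, the estimates were mostly small, with 108 of 145 (74.5%) under 2-fold in either direction. This share was 35 of 103 (34.0%) on the full total behind the deposited values and 59 of 145 (40.7%) without P270 B. The median estimate was 0.44 with miR-122 left out of the total, 0.76 with it in the total and 1.25 on the full total. These medians are over the microRNAs that passed the same filter on each scale. The sign of a small ratio thus depends on the total.

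The result rested on P270 B. Without it, with P270 A as the single wild-type liver assumed to vary as the floxed livers do, 10 microRNAs passed the test, 5 higher and 5 lower in floxed livers. The 5 that were lower in floxed livers were miR-1198, miR-706, miR-148a, miR-720 and miR-193, and the 5 that were higher were miR-181c, miR-328, miR-222, miR-676 and miR-674. In P270 A 4 of these last 5 had 0 reads and miR-674 had 1 read, so the size of their ratios depends on the 1 added before the log. Without P270 A 0 passed, with 2 at an unadjusted p under 0.05.

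The livers were then compared in pairs. The median absolute log2 ratio over the 145 microRNAs was 0.46 between floxed C and P270 B, or 1.37-fold, which was the smallest of the 10 pairs. It was 0.64 between floxed A and C and 0.67 between floxed A and P270 B. So a wild-type P270 liver lay as near to 2 floxed livers as these lay to each other. Floxed C and P270 B had 129 of 145 microRNAs (89.0%) within 2-fold, and among all 42 libraries each was the other's nearest.

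The other pair of livers stood apart, 1 in each group. P270 A was 1.75 from P270 B, and floxed B was 1.01 from floxed A and 1.54 from floxed C. P270 A lay closer to floxed B, at 0.89, than to its own replicate. Over the 6 pairs between the groups the median was 1.18 (range 0.46 to 1.79), and over the 4 pairs within a group 1.28 (range 0.64 to 1.75). This order turned without P270 B (1.48 between and 1.01 within the groups) and with miR-122 in the total (1.54 and 1.45). In the 18 pairs of replicates of the other groups of the series it ran from 0.32 to 1.75, with a median of 0.69. The nearest of all libraries to P270 A was the P28 liver, at 0.65, and the nearest to floxed B was a floxed liver 14 days after Cre, at 0.35.

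**Figure D2:**
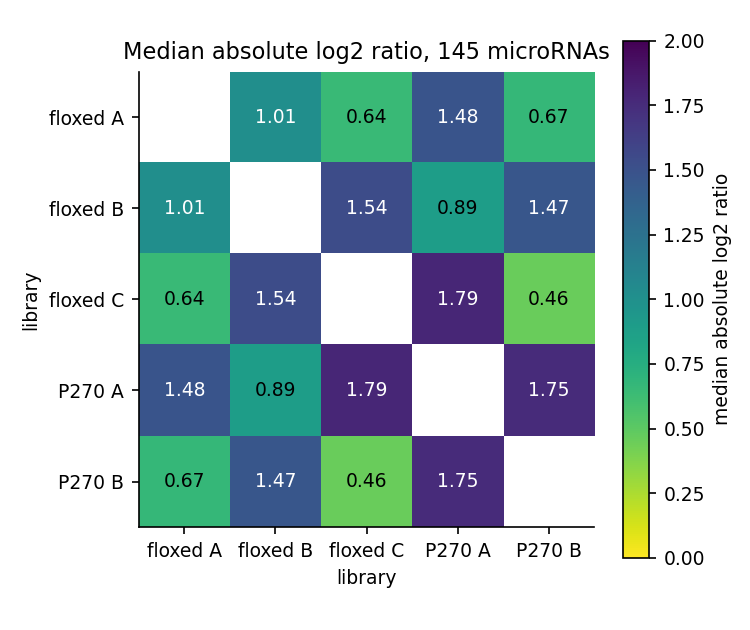
Median absolute log2 ratio over 145 microRNAs for each pair of the 5 libraries, from RPM of the reads other than miR-122, with darker cells further apart. Floxed A, floxed C and P270 B lie 0.46 to 0.67 from each other, while floxed B and P270 A lie 0.89 to 1.79 from all others.

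The let-7 family, which keeps cells differentiated by repressing growth genes such as Ras and Lin28, and miR-21, a microRNA that rises with injury and growth, marked this split. The 11 listed let-7 hairpins took 46.0% of the reads other than miR-122 in floxed A and 53.1% in floxed C, but 19.02% in floxed B. They took 58.9% in P270 B and 9.07% in P270 A. The 2 groups overlap fully, and each holds livers at both ends. let-7a-2 had 89019, 32290 and 122303 RPM in floxed A, B and C, and 7973 and 119765 RPM in P270 A and B. let-7f-2 had 88296, 32144 and 94871 RPM in the floxed livers and 16908 and 100014 RPM in the P270 livers. Between the groups, 0 of 11 were called and all 11 had a log2 ratio above 0 (median 0.61, beside 0.44 over all tested). With the libraries centred on their medians 9 of 11 were above 0 (median 0.19). Without P270 A all 11 were below 0 (median -0.64), and let-7a-2 went from 1.19 to -0.76 on the log2 scale. Hairpins with the same mature sequence may share reads in ways that are not stated, so the sum is of listed reads and not of molecules.

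miR-21 went the other way. It had 45364, 223886 and 16959 RPM in floxed A, B and C, and 183651 and 31827 RPM in P270 A and B. It was thus the first of the microRNAs other than miR-122 in floxed B and in P270 A, with 22.4% and 18.4% of their reads, where let-7a-2 was the first in the other 3 livers. Between the groups its log2 ratio was -0.46 (95% interval -3.44 to 2.52), and without P270 A it was 0.81.

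The ratio of let-7 family reads to miR-21 reads needs no total. It was 10.1 in floxed A, 0.85 in floxed B and 31.3 in floxed C, and 0.49 in P270 A and 18.5 in P270 B. P270 A had the lowest ratio and floxed C the highest of all 42 libraries, with P270 B second to floxed C. The 5 livers thus reached both ends of the range of the whole series, which includes fetal livers and livers that had lost miR-122. This ratio was chosen after its values were seen and is given without a test.

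**Figure D3:**
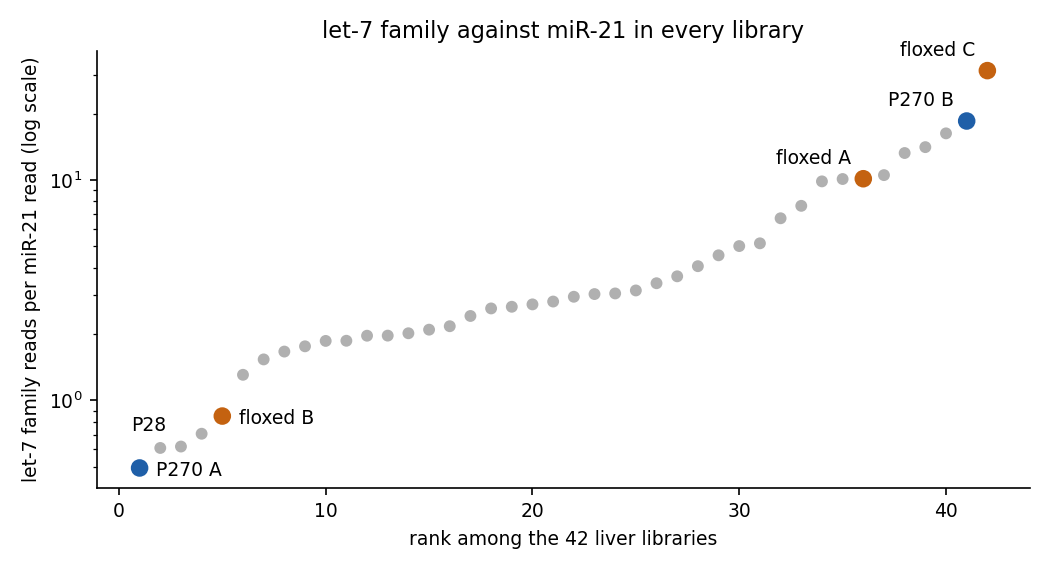
Reads of the let-7 family per read of miR-21, on a log axis, in all 42 liver libraries ordered from lowest to highest, with floxed libraries in orange, P270 in blue and all others in grey. The 5 livers compared here sit at both ends, from 0.49 in P270 A to 31.3 in floxed C.

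Other abundant liver microRNAs split the 5 livers in the same manner. miR-192, a microRNA of hepatocytes and gut epithelium, had 32001, 68652 and 29104 RPM in floxed A, B and C and 52740 and 25845 RPM in P270 A and B. miR-30c-2 had 3465, 8716 and 2252 RPM in the floxed livers and 13105 and 2455 RPM in the P270 livers. miR-26b had 59116, 20082 and 63781 RPM in the floxed livers and 17824 and 43137 RPM in the P270 livers, the order of let-7. In each case floxed B and P270 A shared one side, and the groups overlapped. Of the 15 microRNAs listed as abundant in liver, 0 were called, 7 had a ratio above 0 and 8 below, and the median log2 ratio was -0.0034. The lean of this list had no fixed direction. Without P270 A 14 of 15 were above 0 (median 0.81) and without floxed C 11 of 15 (median 0.45), but without P270 B or without floxed B it was 2 of 15 (medians -0.75 and -0.65). After centring it was 2 of 15 (median -0.43), and on the full total behind the deposited values 12 of 15 (median 0.81).

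In the miR-30 and miR-29 families the ratios of floxed to P270 livers lay on both sides of 0 on the log2 scale. Of the 6 miR-30 hairpins 0 were called, with 3 above 0 and 3 below, and of the 4 miR-29 hairpins 0 were called, with 2 above and 2 below. Without P270 A all 6 miR-30 hairpins were above 0 (median 0.74), while without P270 B and after centring it was 1 of 6 (medians -0.87 and -0.42). On the full total behind the deposited values all 6 miR-30 (median 0.82) and all 4 miR-29 hairpins (median 0.76) were above 0. After centring 1 of 4 miR-29 hairpins was above 0 (median -0.48). miR-29a had 28189, 38777 and 21722 RPM in the floxed livers and 9760 and 31714 RPM in the P270 livers. miR-29c had 17008, 40543 and 9840 RPM in the floxed livers and 17962 and 15842 RPM in the P270 livers. For miR-29a the low liver was P270 A alone, while for miR-29c the high liver was floxed B alone.

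miR-17 and miR-92a-1 belong to a cluster of growth-linked microRNAs on chromosome 14. miR-17 had 1098, 2432 and 811 RPM in floxed A, B and C, and 8339 and 472 RPM in P270 A and B. miR-92a-1 had 1630, 1588 and 815 RPM in the floxed livers and 2016 and 978 RPM in the P270 livers. Of 11 tested members of such clusters 0 were called, with 4 ratios above 0 and 7 below (median -0.13). Without P270 A all 11 were above 0 (median 1.38) and without P270 B 2 of 11 (median -1.41). With voom on the recovered reads 9 of 11 were above 0 (median 0.69), and on the full total all 8 that were tested (median 1.04), so the direction was not fixed. P270 B was the lowest of the 5 livers for miR-17, and P270 A the highest. miR-146a, which rises with inflammation, had 653, 990 and 238 RPM in the floxed livers and 825 and 245 RPM in the P270 livers, and of the 3 tested microRNAs listed as linked to age and stress 0 were called, with 1 above 0 and 2 below (median -0.43). Without P270 A all 3 were above 0 (median 1.12), without P270 B 0 of 3 (median -1.72), and with voom 2 of 3 (median 0.64).

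**Figure D4:**
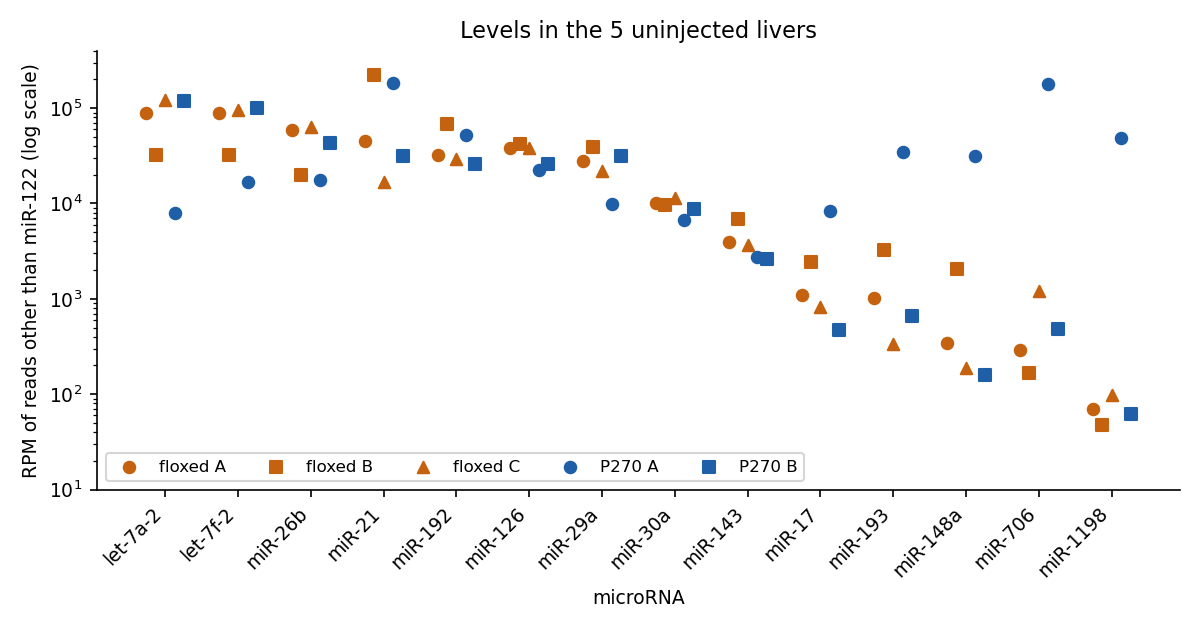
Level of 14 microRNAs in each library, as RPM of the reads other than miR-122 on a log axis, with floxed A, B and C in orange and P270 A and B in blue. miR-126 and miR-143 are higher in all 3 floxed livers on this scale, though not after centring, let-7, miR-26b and miR-21 split floxed B and P270 A from the rest, and miR-193, miR-148a, miR-706 and miR-1198 stand out in P270 A.

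The differences inside the 2 groups were then set side by side as a description, P270 A minus P270 B against floxed B minus the mean of floxed A and C. Floxed B was taken as the liver set against the other two after its values, and its nearness to P270 A, had been seen, so a like direction follows in part from that choice. Across the 145 microRNAs Pearson's r of the deviation from the group mean with that of P270 A was 0.54 for floxed B, -0.29 for floxed A and -0.52 for floxed C. These 3 deviations add up to 0, so the 3 values are not independent of each other. Both differences were above 0 for 73 microRNAs and below 0 for 39, and they were opposite for 33. Among the 75 microRNAs whose mean was 1000 RPM or more, r was 0.61 for floxed B, and 85.3% had the same sign. MicroRNAs are not independent of each other, and both differences are within libraries scaled to a fixed total, so no p is given.

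**Figure D5:**
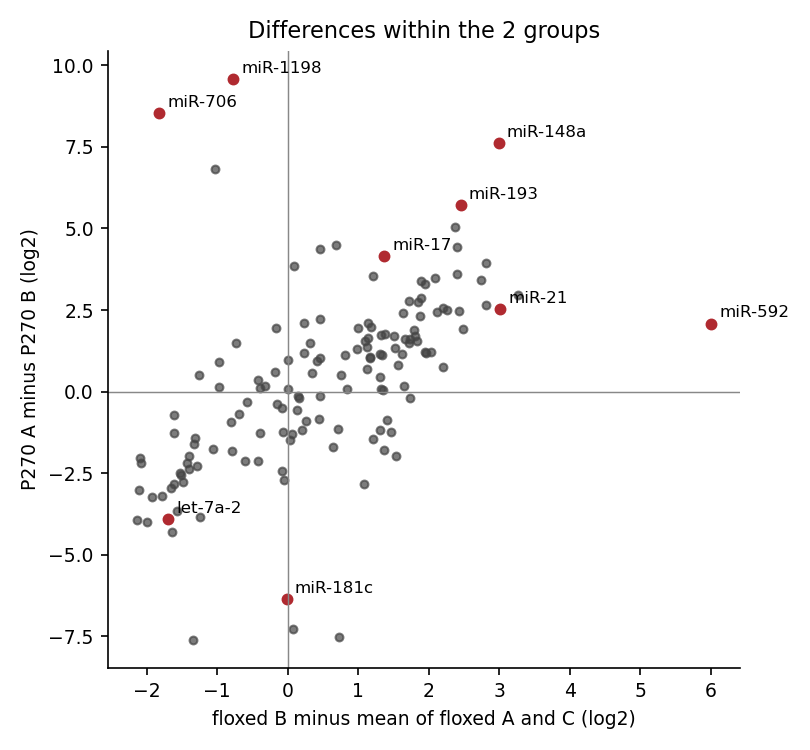
For each of 145 microRNAs, the log2 difference between floxed B and the mean of floxed A and C (horizontal) and between P270 A and P270 B (vertical), with 9 microRNAs named in red. Most points lie in the lower left and upper right, while miR-706 and miR-1198 lie at the top left, high in P270 A and below the other floxed livers in floxed B.

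A few microRNAs were far higher in P270 A than in any of the other 4 livers. miR-706 had 292, 166 and 1195 RPM in floxed A, B and C, 179894 RPM in P270 A and 483 RPM in P270 B. miR-1198 had 69.5, 47.5 and 96.9 RPM in the floxed livers, 48845 RPM in P270 A and 62.4 RPM in P270 B. Together they took 22.9% of the reads other than miR-122 in P270 A and at most 0.129% in each of the other 4 livers. P270 B lay within the floxed range for both, and P270 A was the highest of all 42 libraries. The second highest for both was the P28 liver, with 131884 RPM of miR-706 and 36510 RPM of miR-1198. With both left out of the total, 0 microRNAs were called and the median log2 ratio went from 0.44 to 0.25.

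miR-193 and miR-148a, which are known from hepatocytes among other cells, were high in P270 A and to a lesser degree in floxed B. miR-193 had 1019, 3220 and 339 RPM in floxed A, B and C, 34870 RPM in P270 A and 666 RPM in P270 B. miR-148a had 347, 2047 and 190 RPM in the floxed livers, 31388 RPM in P270 A and 160 RPM in P270 B. For both the P28 liver was the highest of 42 libraries and P270 A the second. miR-148b and miR-152, which have the seed of miR-148a, did not come near it: they had 458 and 962 RPM in P270 A and 345 and 602 RPM in floxed B. Between the groups the log2 ratio of miR-193 was -2.22 (95% interval -6.22 to 1.78), and without P270 A it was 0.64.

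The microRNAs with the lowest unadjusted p, none of them called, were set mostly by P270 A. Those with a ratio below 0 were miR-1198, miR-706 and miR-193, given above, with miR-592 and miR-455. miR-455 had 352, 1489 and 198 RPM in floxed A, B and C and 2291 and 604 RPM in P270 A and B. Those with a ratio above 0 were miR-181c, miR-328, miR-511, miR-674 and miR-199a-2. miR-674 had 1320, 467 and 1614 RPM in the floxed livers and 45.8 and 920 RPM in the P270 livers, and miR-199a-2 had 398, 650 and 125 RPM and 45.8 and 183 RPM. For both, P270 A rests on 1 read, and P270 B lies within the floxed range.

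At the other end, 4 tested microRNAs had 0 reads in P270 A, namely miR-181c, miR-222, miR-328 and miR-676. A count of 0 there allows up to 137.5 RPM, at 3 reads. miR-181c had 227, 182 and 149 RPM in the floxed livers and 81.8 RPM in P270 B, so its level in P270 A may be close to that of P270 B. miR-328 had 171, 166 and 145 RPM in the floxed livers and 156 RPM in P270 B. For miR-328 the limit lies just under the other livers, and no fold is given. Of the 145 tested microRNAs 51 had under 10 reads in P270 A, and the median was 19 reads.

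Where the groups did not overlap, the floxed livers were almost always the higher. All 3 floxed livers were above both P270 livers for 18 of 145 microRNAs (12.4%), and below both for 1 (0.69%). Of the 18, 15 had under 10 reads in P270 A, as had 51 of the 145 microRNAs tested. The 18 were miR-28, miR-30a, miR-99b, miR-126, miR-137, miR-143, miR-150, miR-181c, miR-223, miR-322, miR-340, miR-425, miR-484, miR-500, miR-511, miR-532, miR-574 and miR-671, and the 1 was miR-592. This count moves with the total: it was 23 with miR-122 in the total and 36 on the full total behind the deposited values. With each library centred on its median log2 level it was 5 higher and 3 lower, and the 5 were miR-150, miR-181c, miR-500, miR-532 and miR-671.

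miR-126, one of the 18, had 37749, 42476 and 38189 RPM in floxed A, B and C, and 22590 and 25970 RPM in P270 A and B. Floxed B and P270 A, which stood apart for the abundant microRNAs, did not do so here. The means were 39471 ± 2611 RPM (SD, n = 3) and 24280 ± 2390 RPM (SD, n = 2). The log2 ratio was 0.70 (95% interval -1.01 to 2.42, adjusted p = 0.98, limma), and the limma interval borrows its width from all 145 microRNAs. With the libraries centred on their medians the groups overlapped for miR-126, so its separation depends on the total.

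miR-143, a microRNA of smooth muscle and stromal cells, had 3965, 6843 and 3677 RPM in the floxed livers and 2749 and 2607 RPM in the P270 livers. miR-223, of myeloid cells, had 597, 341 and 335 RPM in the floxed livers and 229 and 214 RPM in the P270 livers, of which P270 A rests on 5 reads. The miR-511 hairpin at chr2:14182630-14182708 lies in an intron of the macrophage mannose receptor gene Mrc1. miR-511 had 848, 705 and 658 RPM in the floxed livers and 91.6 and 503 RPM in the P270 livers, of which P270 A rests on 2 reads. All 3 were higher in every floxed liver than in either P270 liver, and none passed the test. The groups overlapped for all 3 after centring.

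Among the 145 tested, miR-592 was the 1 microRNA lower in all floxed livers. It had 0, 63.4 and 0 RPM in floxed A, B and C, and 367 and 85.7 RPM in P270 A and B. A count of 0 allows up to 13.9 RPM in floxed A and 12.1 RPM in floxed C, while P270 A rests on 8 reads. Its log2 ratio of -5.48 (95% interval -12.7 to 1.75) depends on the added value of 1 and is no bound.

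Against P270 B alone, which is as deep as the floxed libraries, 79 of 145 microRNAs lay within the floxed range. Another 56 (38.6%) lay below all 3 floxed livers and 10 (6.90%) above. Most of these gaps were small, with 5 below by over 2-fold and 0 above. The 5 were miR-19a, miR-19b-2, miR-210, miR-652 and miR-671. miR-19b-2, which gives the same mature microRNA as miR-19b-1 of the miR-17 cluster, had 89.6 RPM in P270 B and 291 to 1584 RPM in the floxed livers. miR-652 had 23.4 RPM in P270 B and 80.7 to 310.3 RPM in the floxed livers. These 5 were chosen after their values were seen, and 1 liver gives no test.

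Whole liver mixes cell types, so fewer cells of a type and less microRNA per cell cannot be told apart. The summed markers of stromal cells, 6 hairpins, were at 6971, 9548 and 4670 RPM in floxed A, B and C and 3986 and 3714 RPM in P270 A and B, without overlap. Without miR-143 the other 5 hairpins summed to 3006, 2705 and 993 RPM in the floxed livers and 1237 and 1107 RPM in the P270 livers, with overlap, and miR-143 was the 1 of the 5 tested whose groups did not overlap. Of the 5 tested, 0 were called and all 5 had a ratio above 0 (median log2 0.79), or 4 of 5 after centring (median 0.37). Over all tested microRNAs 106 of 145 were above 0 (median 0.44), or 74 of 145 after centring, and 12.4% had all floxed livers above both P270 livers, so nothing particular to the stromal markers is read from these counts. The 4 white blood cell markers summed to 3474, 2550 and 4876 RPM in the floxed livers and 5407 and 2120 RPM in the P270 livers, and the 3 erythroid markers to 8217, 20782 and 8786 RPM and 6919 and 14458 RPM, both with overlap. miR-142, the main white blood cell marker, had 2524, 1996 and 4331 RPM in the floxed livers and 5040 and 1793 RPM in the P270 livers. miR-451, the main erythroid marker, had 6360, 18276 and 7890 RPM in the floxed livers and 3941 and 13538 RPM in the P270 livers.

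miR-200a and miR-200b mark bile duct epithelium in the liver. miR-200b had 542, 523 and 129 RPM in the floxed livers and 183 and 74.0 RPM in the P270 livers, and the 5 duct markers summed to 311 to 1236 RPM in the floxed and 249 to 733 RPM in the P270 livers. The markers of muscle, pancreas and brain were at or near 0, which bears on the tissue label. The 9 muscle hairpins summed to 7.92 to 92.8 RPM in the floxed livers and 0 and 54.6 RPM in the P270 livers, and 5 of them had no read in any of the 5. The pancreas markers summed to at most 13.9 RPM and the neural markers to at most 12.1 RPM in any of the 5 livers. The part of cell composition in the values of miR-126, miR-143, miR-223 and miR-511 was not tested.

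The microRNAs of the imprinted loci were low in both groups. Of the 51 listed microRNAs of the Dlk1-Dio3 cluster, 24 had no read in any of the 5 livers and none reached the mean of 100 RPM. Their sum was 282, 301 and 339 RPM in floxed A, B and C and 458 and 358 RPM in P270 A and B, where P270 A rests on 10 reads. The floxed livers thus held 61 to 84 reads of the whole cluster, and the P270 B liver 92. miR-127 had 92.6, 35.6 and 121 RPM in the floxed livers and 0 and 66.2 RPM in the P270 livers. miR-376a had 88.0, 35.6 and 48.4 RPM in the floxed livers and 45.8 and 89.6 RPM in the P270 livers. Both ranges overlap.

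At the Igf2 and H19 locus, no read of miR-483 or of miR-675 was found, 0 in each of the 5 livers. This allows up to 11.9 to 13.9 RPM in the floxed livers, 11.7 RPM in P270 B and 137.5 RPM in P270 A. The 51 microRNAs listed for the Sfmbt2 cluster, which is imprinted in the placenta, summed to 102, 198 and 109 RPM in the floxed livers. In the P270 livers they summed to 321 and 164 RPM, and 17 of them had no read. miR-466i, a member of this list, had 4.63, 11.9 and 8.07 RPM in floxed A, B and C. It had 91.6 and 42.9 RPM in P270 A and B, where P270 A rests on 2 reads. Its hairpin lies at chr13:17839307-17839427, in an intron of Cdk13 on the opposite strand, so the list is not of the Sfmbt2 cluster alone.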

How the data were processed

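Livers were ground frozen and extracted with Trizol, and the small RNA was cut from a gel, ligated to barcoded adaptors and sequenced on a MiSeq. The authors aligned the reads to the microRNAs of miRBase with Bowtie 0.12.7, allowing mismatches. The deposited values are RPM per hairpin with 1 added, and how reads that match several hairpins were counted is not given in the sources used here. The 1 was subtracted. The low values of each library are then whole multiples of 1 read, within 0.1 read for 100% of them, and reads were recovered from this step. The main test was not a count model, and voom on the recovered reads was an alternative. The authors' FPKM of messenger RNA hold no P270 liver and were not used.

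RPM were recomputed over the reads other than miR-122. The log2(RPM + 1) values of microRNAs whose mean over the 5 libraries reached 100 RPM were fitted with limma 3.58.1 in R 4.3.3 (lmFit, then eBayes with an intensity trend), with Benjamini-Hochberg adjustment and a threshold of 0.05. Fold changes on this scale are smaller than those of RPM for low microRNAs, and depend on the added 1 where a library has 0 reads. Ratios are floxed over P270. The miR-122 share was compared by an exact permutation test. The fit was tested on simulated data with the spread within the groups and the depth of each library. With 30 of 145 microRNAs changed, it recovered 0% of changes of log2 1 or 2 and 33% of those of log2 4. False calls per run were 0, 0.05 and 1.5 at these sizes. A count of 0 calls thus says little about changes of log2 1 or 2. Alternatives were totals with miR-122, centring, pseudocounts of 10 and 100, filters, array weights, voom, all groups in 1 fit, a replicate block and leaving out each library. Exact matches were counted with Python 3.11.15 in NCBIM37, with positions from GENCODE M1.

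The microRNAs named are the 10 most abundant other than miR-122, up to 10 called and not overlapping in each direction (filled to 5 by the lowest unadjusted p), the 2 most abundant of each list, and miR-122, miR-127, miR-376a, miR-483, miR-675 and miR-21. The rest of those named were picked once values had been seen. The groups and lists were chosen with earlier results of these data known. Of 51 hairpins looked up, 43 matched a RefSeq mature sequence. Each library is 1 animal, per the labels and the study's methods.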

Additional observations from a re-analysis of the deposited data

Results flagged for a closer look

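The P28 liver, a single mouse that enters no test, was high in microRNAs that were high in P270 A. It had 131884 RPM of miR-706 and 36510 RPM of miR-1198, where P270 B had 483 and 62.4 RPM. It also had 47249 RPM of miR-193 and 37531 RPM of miR-148a, where P270 B had 666 and 160 RPM. The P28 and P270 A libraries are also 2 of the 3 in which part of the deposited total is not listed. The other is E14 replicate A, where miR-706 had 19081 RPM (rank 4 of 42) and miR-1198 had 5477 RPM (rank 3). miR-706 had 37932 RPM (rank 3) in 1 of the 3 floxed livers 14 days after Cre, whose list is complete. The part of the unlisted reads and of the many genomic copies of the miR-706 sequence in these values was not tested.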

How the results depend on the processing

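The count of microRNAs called stayed at 0 under 16 of 18 alternatives, with 0 to 10 at an unadjusted p under 0.05. Leaving out each library in turn gave 0 to 10 calls, the 10 without P270 replicate B. Leaving out floxed B and P270 A together, chosen after seeing the data, was the other alternative with calls. They were miR-592 (log2 ratio -6.44) and miR-720 (1.90), on 2 floxed livers with near-equal values against 1 P270 liver. For miR-592 both floxed livers had 0 reads. It was above the filter of 100 RPM only in P270 A (367 RPM), which this setting leaves out, so its call is no support for a difference. The miR-122 log2 ratio of -0.15 was 0.33 on the full total behind the deposited values, 0.032 without floxed B and P270 A together, and -0.25 to -0.048 as each library was left out. The median distance of pairs was 0.67 to 1.48 between and 1.01 to 1.65 within the groups as each library was left out. The order of the medians turned without P270 B. The labels give the letters A and B without saying that they pair animals. The deviations of floxed A and P270 A from their group means had r = -0.29, and those of floxed B and P270 B r = -0.54. With 2 P270 livers the deviations of P270 A and B are equal and opposite, so these values cannot decide whether the letters pair animals. The replicate block called 0 microRNAs, with 1 at an unadjusted p under 0.05. The depth of P270 A, 21824 reads other than miR-122, sets the limit for low microRNAs.

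Of 618 log2 ratios of 35 named microRNAs under the alternatives, 543 kept direction and call, 7 passed the threshold and 68 changed sign, none of them called. The cause was not tested. On the full total behind the deposited values the ratios that changed sign were 0.36 for miR-21, 0.34 for miR-30c-2, 0.20 for miR-17, 0.68 for miR-92a-1, 0.23 for miR-144, 0.71 for miR-142. With the replicate block the ratios that changed sign were 0.40 for miR-21, -0.045 for let-7c-2, -0.039 for let-7c-1, 0.20 for miR-92a-1, 0.045 for miR-144. Without floxed B and P270 A together the ratios that changed sign were -0.20 for let-7a-2, -0.13 for let-7f-2, -0.13 for let-7f-1, -0.45 for let-7c-2, -0.48 for let-7c-1, 0.29 for miR-706, -0.31 for let-7g, 0.39 for miR-1198, 0.19 for miR-30c-2, -0.36 for miR-29a, -0.29 for miR-29c, 1.00 for miR-17, 0.24 for miR-92a-1, -0.93 for miR-451, 0.88 for miR-142. Centred on the median the ratios that changed sign were -0.14 for let-7c-2, -0.31 for miR-192, -0.18 for let-7c-1, -0.26 for miR-29c, -0.17 for miR-146a, -0.011 for miR-451, -0.029 for miR-200a. With array weights the ratios that changed sign were -0.045 for miR-192. With miR-706 and miR-1198 also left out of the total (chosen after seeing the data) the ratios that changed sign were -0.072 for miR-192, -0.020 for miR-29c. With miR-122 in the total the ratios that changed sign were 0.21 for miR-92a-1, 0.23 for miR-142. As each library was left out, the ratios of those that changed sign ran from -1.72 to 0.81 for miR-21, -0.76 to 3.15 for let-7a-2, -0.63 to 1.93 for let-7f-2, -0.64 to 1.85 for let-7f-1, -0.91 to 1.47 for let-7c-2, -0.40 to 0.63 for miR-192, -0.028 to 1.25 for miR-26b, -0.90 to 1.39 for let-7c-1, -0.45 to 1.67 for let-7g, -9.46 to 0.13 for miR-1198, -5.07 to 0.64 for miR-193, -1.68 to 0.73 for miR-30c-2, -0.14 to 1.56 for miR-29a, -0.38 to 0.64 for miR-29c, -2.69 to 1.45 for miR-17, -0.65 to 0.39 for miR-92a-1, -0.62 to 1.12 for miR-146a, -0.48 to 1.30 for miR-451, -1.91 to 0.74 for miR-144, -0.85 to 0.64 for miR-142, -0.42 to 1.21 for miR-200a.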

Other observations

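P270 A was the highest of the 42 libraries for 8 of 145 microRNAs and the lowest for 27, and P270 B was the highest for 2 and the lowest for 15. In P270 A 1 read is worth 45.8 RPM and 51 of the 145 had under 10 reads, so a lowest rank there can rest on few reads. Floxed A, B and C were the highest for 3, 1 and 4 and the lowest for 0, 0 and 7. The microRNAs lowest in P270 A include let-7a-2, let-7d, let-7e and let-7i, miR-10a, miR-99a, miR-99b and miR-125a, of which miR-10a had 504 RPM there and 8773, 2186 and 8613 RPM in floxed A, B and C. Those lowest in P270 B include the growth-linked miR-18a, miR-19a, miR-19b-1, miR-19b-2 and miR-106b.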
